A study of Homo sapiens with 2 samples.

Results

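Kallikrein-related peptidases are secreted serine proteases of the trypsin fold that epithelia release as inactive pro-enzymes. Once cleaved, many of them activate each other in a cascade, and in skin this cascade cuts the junctions between cornified cells so that these can be shed. Several members are made by carcinomas, including those of the colon. The 10 genes described here, KLK1, KLK5, KLK6, KLK7, KLK8, KLK10, KLK11, KLK12, KLK13 and KLK14, were chosen by their KLK symbols with the differences between these arrays already known. All 10 were found among the 13754 genes that could be named and were not small RNAs, each through 1 probe set.

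HT29 cells, an established line of human colon adenocarcinoma, had received either a control siRNA or an siRNA directed at GATA6, a DNA-binding regulator of gut epithelium, and their total RNA was hybridized to 1 Affymetrix array per condition. The sources used here do not give the siRNA dose, the time after transfection or which of the GATA6 duplexes in the study's methods went onto the array, and they do not explain why the control title reads reanalyzed. The pair stands for 1 siRNA treatment of 1 cell line. With 1 array per condition a difference has no replicate check and no test, so the words higher and lower describe these 2 arrays only. The deposited values are relative to the median of both arrays, so the 2 values of a gene are the same number with opposite signs and hold no expression level. They were taken as log2 values, although the sources used here state no base.

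The table showed the labelled target at a lower value in its own array. GATA6 stood at 0.58 in the control array and at -0.58 in the GATA6 siRNA array, a log2 difference of -1.15 that leaves 45.0% of the control value. As a scale for the differences that follow, probe sets lay around the mean of their gene with an SD of 0.19 on the log2 scale. It was taken over 470 genes that had exactly 2 probe sets, and is called the SD between probe sets below. A gap between 2 probe sets spreads wider than this SD. The SD holds no variation between repeated arrays, transfections or cultures, so multiples of it are a scale and not a test. Each kallikrein-related gene had 1 probe set only, so none of them was measured again on the same array. All 8 measured markers of colon epithelium had differences above 0, against 48.3% of all genes. Of these 8 markers, 3 passed 1.4-fold, against 6.17% of all genes (KRT20 3.70-fold, KRT19 1.45-fold and EPCAM 1.41-fold higher). EPCAM lay just above that size. CDX1 (0.11), CDX2 (0.024) and VIL1 (0.016), of the same list, lay within 1 SD between probe sets of 0. Of 7 measured genes listed as markers of other cells, 0 passed 1.4-fold. They ranged from -0.41 (DES) to 0.47 (LYZ), and LYZ, at 1.38-fold higher, lay just below that size. The part of these markers in the kallikrein-related differences was not tested. In a bulk culture, fewer cells with a transcript and less of it per cell cannot be told apart. Whether any kallikrein-related gene is expressed above background in HT29 cells cannot be read from values without levels.

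The kallikrein-related genes did not differ as a block. KLK6 and KLK5 were higher and KLK10 was lower in the GATA6 siRNA array, while the other 7 genes stayed below 1.4-fold, the size that the methods of the study set for a decrease (0.49 on the log2 scale). Of the 10 genes, 9 had a difference above 0 and 1 below it, compared with 48.3% of all 13754 genes above 0. The median over the 10 genes was 0.20 on the log2 scale against 0 over all genes, and the differences ranged from -1.01 to 1.14. Over all 16 genes of the kallikrein locus, which include the 6 that were not chosen, 12 had a difference above 0 and the median was 0.093. The 6 others had 3 above 0 and a median of 0.023. The choice of the 10 genes used this contrast, so their counts and medians, here and below, are a description only. Of the 10, 3 passed 1.4-fold, 2 of them higher and 1 lower. Among all genes 6.17% passed 1.4-fold, 3.56% higher and 2.61% lower, and among the 11911 protein-coding genes 6.77% passed it. A 2-fold size was passed by 2 of the 10 genes and by 0.603% of all genes. KLK10, at 2.01-fold lower, lay just past that size. It did not pass it with the median of the ribosomal protein genes set to 0 (-0.89), and did under quantile normalization (-1.15).

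**Figure D1:**
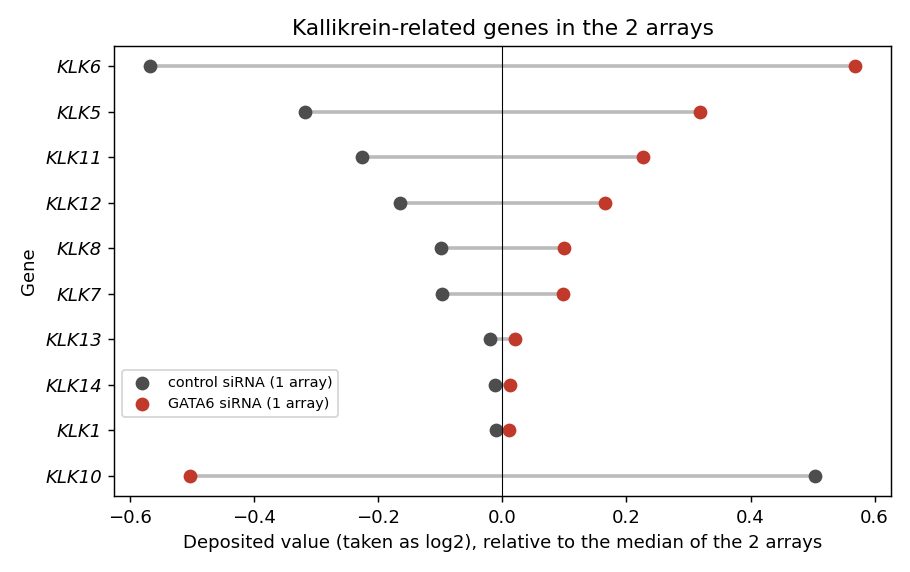
Deposited value (x axis, taken as log2, relative to the median of the 2 arrays) of each kallikrein-related gene (y axis) in the control siRNA array (grey) and the GATA6 siRNA array (red), 1 array each, with no error bars. The pair of points is widest for KLK6 (-0.57 and 0.57), and KLK10 alone has its GATA6 siRNA value below its control value (-0.50 against 0.50).

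Promoters were searched because GATA6 binds DNA at GATA sites and the family members differed in opposite directions. RefSeq promoter windows of assembly GRCh38.p14, each 300 bases long (250 before and 50 after a start), matched 8 of the 10 genes with 15 windows. KLK1 and KLK8 were not matched. The upstream 250 bases of the first listed window are shown for the 2 genes with the largest differences, KLK6 and KLK10, and for the 2 genes that held a GATA match, KLK5 and KLK7. All 4 lie on the minus strand, and they cover chr19:50969592-50969841 for KLK6, chr19:51019862-51020111 for KLK10, chr19:50953039-50953288 for KLK5 and chr19:50983918-50984167 for KLK7. Sequences run 5′ to 3′ toward the start, and capitals mark a GATA match in KLK5 and KLK7 and a GC box, GGGCGG on either strand, in KLK6 and KLK7.
KLK6: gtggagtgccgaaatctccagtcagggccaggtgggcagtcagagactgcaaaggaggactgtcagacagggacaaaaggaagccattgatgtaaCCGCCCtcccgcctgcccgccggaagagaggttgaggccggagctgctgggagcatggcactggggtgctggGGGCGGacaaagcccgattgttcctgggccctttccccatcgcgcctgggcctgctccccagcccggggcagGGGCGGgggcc
KLK10: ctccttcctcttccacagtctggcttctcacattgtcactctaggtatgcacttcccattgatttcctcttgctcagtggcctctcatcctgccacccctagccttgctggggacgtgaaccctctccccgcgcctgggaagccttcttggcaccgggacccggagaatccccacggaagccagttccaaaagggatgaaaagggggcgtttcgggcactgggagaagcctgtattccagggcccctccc
KLK5: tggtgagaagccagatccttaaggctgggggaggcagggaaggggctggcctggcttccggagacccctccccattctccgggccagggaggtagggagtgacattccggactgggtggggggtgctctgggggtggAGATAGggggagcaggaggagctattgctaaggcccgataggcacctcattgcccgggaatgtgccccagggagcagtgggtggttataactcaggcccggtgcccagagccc
KLK7: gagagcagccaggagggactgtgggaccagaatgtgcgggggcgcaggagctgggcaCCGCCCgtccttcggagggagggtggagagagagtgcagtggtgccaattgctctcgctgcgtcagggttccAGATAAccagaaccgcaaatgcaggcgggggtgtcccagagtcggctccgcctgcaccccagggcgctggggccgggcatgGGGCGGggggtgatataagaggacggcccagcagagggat

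A GATA match was counted for AGATAA or AGATAG or TGATAA or TGATAG on either strand. It was found in 4 of the 15 windows, which belong to KLK5 and KLK7, while 25% of all 35116 windows in the reference table held at least 1. In KLK5 the match began 113 bases before the start. The 3 windows of KLK7 overlap and hold the same match, which began 121 bases before the first listed start. The windows of KLK6 and KLK10, the genes with the largest differences, held 0. A GC box was found in 9 of the 15 windows, against 45% of all windows. These 9 windows belong to 5 of the 8 genes. The windows of KLK7, of KLK13 and of KLK14 overlap, so some GC boxes were counted in more than 1 window. The single window of KLK6 held 3 and both windows of KLK10 held 0. The TATA box letters TATAAA and the AP-1 motif TGANTCA were in 0 of the 15 windows, compared with 11.5% and 7.71% of all windows. Variants of these letters were not searched, so the counts do not show that the windows lack a TATA-like element. GATA and GC box matches did not overlap in the windows shown. The windows of these genes had a GC content of 54.3% to 70.7%, against a median of 58.7% over all windows. A match is a run of letters in a window and not a measured binding site. Sequence outside these windows of 300 bases was not searched, so a window with 0 matches does not show that a gene lacks GATA sites.

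**Figure D2:**
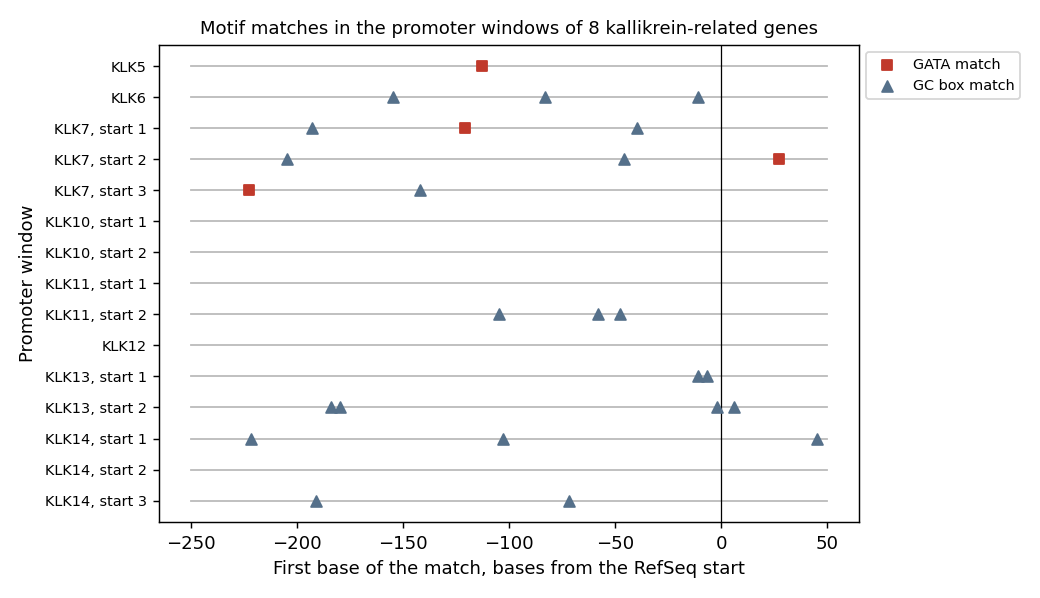
First base of each GATA match (red squares) and GC box match (blue triangles) in bases from the RefSeq start (x axis) for the 15 promoter windows of 8 kallikrein-related genes (y axis, 1 line per window). GATA matches occur in the windows of KLK5 and KLK7 only, and both windows of KLK10 hold neither motif.

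KLK6, a trypsin-like protease also known as neurosin that is abundant in the nervous system and raised in several carcinomas, had the largest difference of the family. Its value was -0.57 in the control array and 0.57 in the GATA6 siRNA array. The log2 difference of 1.14 corresponds to a value 2.20-fold higher, or 220% of control. The window of KLK6 printed above carries GC boxes and no GATA match. The difference ranked 36th from the highest of the 13754 genes and was 5.92 times the SD between probe sets of 1 gene. The genes with the closest differences were S100A14, an S100 protein of epithelia (1.12), KDM7A, a histone demethylase (1.12), and ADGRF1, an adhesion G protein-coupled receptor (1.16). This likeness is a gap of at most 0.022 on the log2 scale in 1 contrast of 2 arrays, so it carries no information beyond the size of the difference.

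KLK10, a kallikrein-related gene first described as expressed in normal breast epithelial cells and lost in tumor cells, went the other way. It stood at 0.50 in the control array and at -0.50 in the GATA6 siRNA array. The log2 difference of -1.01 leaves 49.8% of the control value, which is 2.01-fold lower. The KLK10 window printed above held neither motif. The gene ranked 31st from the lowest of all genes. Its distance from KLK6 was 2.14 on the log2 scale, or 11.2 times the SD of a probe set around its gene mean.

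KLK5, the tryptic enzyme of the outer skin layer that can activate other members of the family, had values of -0.32 and 0.32 in the control and GATA6 siRNA arrays. It was 1.56-fold higher (log2 difference 0.64) and ranked 235th from the highest. KLK11, a trypsin-like protease of brain and prostate, had values of -0.23 and 0.23. Its difference of 0.45 (1.37-fold) lay just below the 1.4-fold size, and KLK5 was the nearest of the 10 above it. With the ribosomal protein genes set to 0, KLK11 stood at 0.58 and passed that size. KLK12, a trypsin-like member, had values of -0.16 and 0.16, a difference of 0.33 (1.26-fold).

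The skin protease KLK7, which cleaves after aromatic residues in the manner of chymotrypsin, and KLK8, also called neuropsin, had nearly the same difference. KLK7 stood at -0.097 and 0.097 in the control and GATA6 siRNA arrays, a difference of 0.19. KLK8 stood at -0.098 and 0.098, a difference of 0.20. Both differences were about the size of the SD between probe sets of 1 gene (1.01 and 1.02 times it). KLK5 and KLK7 act together in the shedding of skin cells, and here they lay 3.32 and 1.01 of these SDs from 0.

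The remaining 3 genes were the nearest to 0. KLK13, a trypsin-like member, had a difference of 0.041, KLK14, a trypsin-like enzyme that activates other family members, 0.023, and KLK1, the tissue kallikrein that frees kinins from kininogen, 0.022. These 3 lay within 1 SD between probe sets. In the order of the differences from KLK6 down to KLK10, 2 of the 9 neighbouring pairs were farther apart than that SD. They were KLK6 and KLK5, which differed by 0.50, and KLK1 and KLK10, which differed by 1.03. The order of the 8 genes from KLK5 to KLK1 is therefore not separated step by step by more than this spread.

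**Figure D3:**
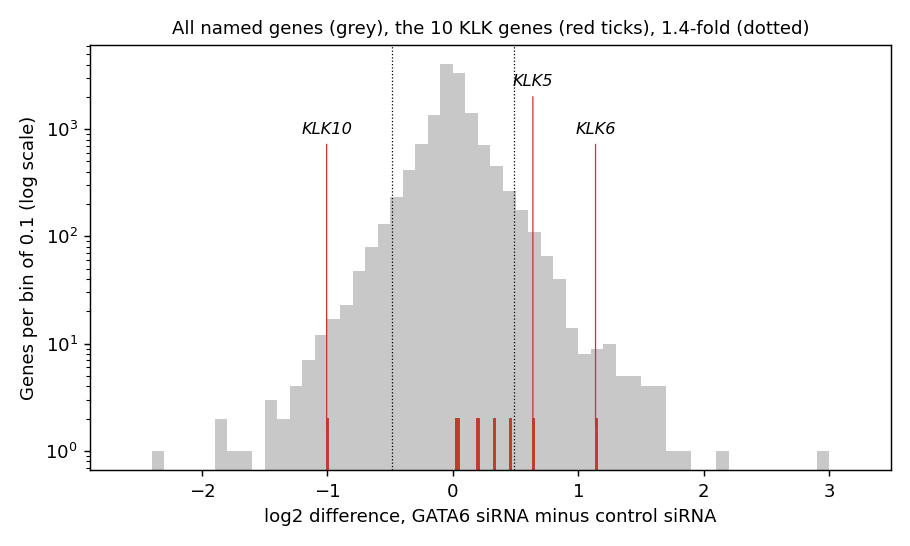
Number of genes (y axis, log scale) by log2 difference between the GATA6 siRNA and control siRNA arrays (x axis, bins of 0.1) for all 13754 named genes, with the 10 kallikrein-related genes as red ticks and the 1.4-fold size as dotted lines. KLK6 (1.14) and KLK10 (-1.01) lie in the sparse upper and lower tails, and the other 8 genes lie between 0.022 and 0.64.

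The kallikrein-related genes lie side by side on chromosome 19, and the measured differences were set out in that order. The locus held 16 genes in the reference annotation, 15 of them protein-coding and 1 a transcribed pseudogene (KLKP1), and all 16 were measured. KLK5 and KLK6 were adjacent, with KLK4 (0.084) before KLK5 and KLK7 (0.19) after KLK6. KLK10 lay between KLK9 (0.10) and KLK11 (0.45), and was 1.11 below the first and 1.46 below the second on the log2 scale. Adjacent genes of the locus therefore had differences of opposite sign. Reference annotation places 1 long non-coding RNA gene across both KLK5 and KLK6, and whether the probe sets of these genes also take up its transcripts was not tested.

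The 6 genes of the locus outside the 10 included 0 that passed 1.4-fold. KLK3, which encodes prostate-specific antigen, had a difference of 0.32, and KLK2, its close relative in prostate, -0.27. KLK2 and KLK3 resemble each other closely in sequence, so their probe sets may share signal and the values are uncertain. KLK15 (-0.038) and KLKP1 (-0.082) were near 0 and turned to values above 0 when ribosomal protein genes were set to 0. Of the 40 protein-coding neighbors of the locus, 20 on each side, 27 were measured. Among these 27, 2 passed 1.4-fold, both higher, VSIG10L (0.80), the seventh gene after the locus, and EMC10 (0.51), the eleventh before it, a share near the 6.17% of all genes, and the median of the 27 was 0.

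**Figure D4:**
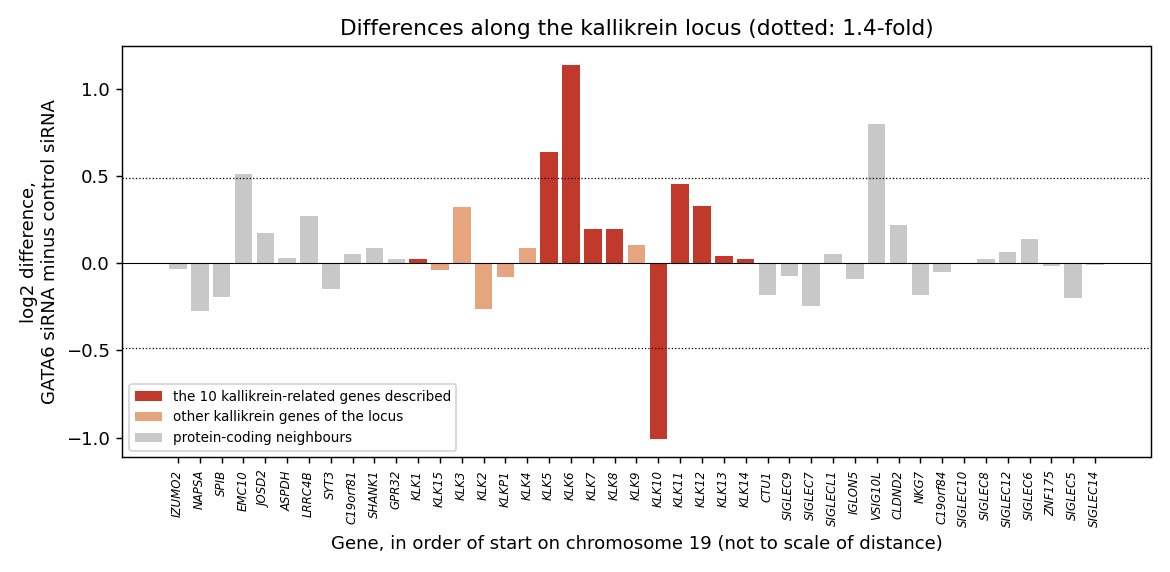
Log2 difference between the GATA6 siRNA and control siRNA arrays (y axis) of genes in their order along chromosome 19 (x axis, measured genes only, evenly spaced), with the 10 kallikrein-related genes in red, the other 6 kallikrein genes in orange and protein-coding neighbors in grey, dotted lines marking 1.4-fold. KLK5 (0.64) and KLK6 (1.14) stand side by side above the line and KLK10 (-1.01) stands alone below it.

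Genes that act with these proteases were then described from lists of protease inhibitors, activating proteases, receptors and substrates. Of 29 inhibitor genes only 4 could be named here, and 0 of them passed 1.4-fold. SLPI, a secreted leukocyte protease inhibitor of mucosa, came nearest (0.44), followed by WFDC2 (0.12), while the broad protease trap A2M (-0.058) and its skin relative A2ML1 (0.025) were near 0. The other genes of this list are not analysed here. Among 5 measured activating proteases the largest difference was that of ST14, which encodes the membrane protease matriptase (0.39), followed by CTSC, cathepsin C (-0.20), and 0 passed 1.4-fold. Of 7 measured receptor and kinin system genes 0 passed it, and F2R, the thrombin receptor, was the farthest from 0 (0.17). Among 3 measured steroid receptor genes ESR2 was the farthest (0.068).

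Substrates and companions of the skin cascade passed 1.4-fold about as often as all genes did (6.17%). Of 10 measured junction proteins and filaggrin, 1 passed 1.4-fold, the desmosomal cadherin DSC2 (3.21-fold higher, log2 difference 1.68), and the next was DSG2 (0.34), a cadherin of simple epithelia. FLG, filaggrin, and CDSN, corneodesmosin, the latter a substrate of the skin proteases, had differences of 0.083 and -0.027. The desmosomal cadherins DSG1 (-0.051) and DSC1 (0.019) were also near 0. Whether DSC2 is cut by these proteases in HT29 cells was not tested. Of 49 measured genes of squamous differentiation and the cornified envelope, 3 were higher by over 1.4-fold and 0 lower. They were SCEL, sciellin (2.88-fold), PPL, periplakin (2.12-fold), and GRHL3, a transcription factor of the epidermis (1.50-fold), with SPRR1B next (0.45), and the list's median was 0.022. Among the 34 measured of 90 other genes of the trypsin-like family 0 passed 1.4-fold, with a range of -0.21 to 0.39 and a median of 0.0053.

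**Figure D5:**
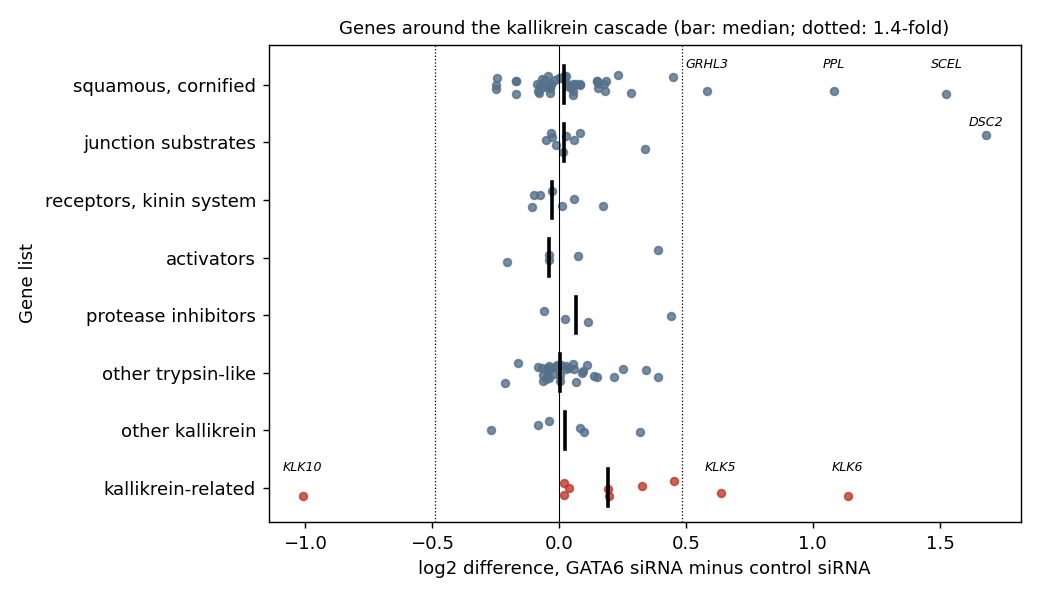
Log2 difference between the GATA6 siRNA and control siRNA arrays (x axis) of each measured gene in 8 lists (y axis), with the median as a black bar and 1.4-fold as dotted lines, points spread vertically for legibility. The 10 kallikrein-related genes range from -1.01 to 1.14 and were chosen with these differences known, and the 34 measured of 90 other trypsin-like genes lie between -0.21 and 0.39.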

How the data were processed

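HT29 total RNA from 1 control siRNA and 1 GATA6 siRNA transfection was measured, per the methods of the study, on 1-color Affymetrix Human Gene ST arrays evaluated in GeneSpring. Samples were grouped by the treatment in the labels. The values the authors deposited, taken here as log2 because no source states the base, are relative to the median of both arrays, and in all 44629 rows the columns mirror each other within 1e-06. The sources used here do not give the summarization, normalization, filters or genome build. A floor or constant added before the logarithm would understate differences of weakly expressed genes. Of the probe sets, 15835 carried 1 symbol, 0 several, and 28794 stayed unnamed here. Probe sets of 1 symbol were averaged, and small RNAs (1058 symbols) were left out. The members and the gene lists were chosen with earlier results of these data known. Named genes were all 10 members, GATA6, up to 4 genes per list with the largest absolute difference and the 3 genes closest to the top member. CDSN, DSC1, DSG1, CDX1, CDX2, VIL1, KLK15 and KLKP1 were named after their values were seen. The alternatives were other centrings, quantile normalization, fold sizes and probe set rules. Names, gene order and promoters came from RefSeq, GRCh38.p14. With 1 array per group no test was made. The calculations, made in Python 3.11.15 with numpy 2.4.6 and pandas 2.3.3, were checked on simulated data.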

Additional observations from a re-analysis of the deposited data

How the results depend on the processing

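The ribosomal protein genes were 50 genes taken by their RPL or RPS symbols, which include ribosomal-protein-like genes such as RPL7L1. Centring on their median raised each difference by 0.12, and 4 of the 10 kallikrein-related genes then passed 1.4-fold, since KLK11 joined at 0.58. KLK6 stood at 1.26, KLK10 at -0.89 and the median of the 10 at 0.32. Among all genes this turned 489 higher and 359 lower into 837 and 199. Quantile normalization gave 412 higher and 426 lower, with KLK6 at 1.03, KLK5 at 0.60 and KLK10 at -1.15, and 3 of the 10 past 1.4-fold. Under these scalings the sign of each of the 10 differences stayed as reported. At 1.2-fold 5 of the 10 passed, 4 higher and 1 lower. Many more genes pass that smaller size. KLK2, 1.202-fold lower, ranked 2564th by absolute difference, so at least 2564 of the 13754 genes passed 1.2-fold. At 2-fold, with the scaling as deposited, 1 of the 10 was higher and 1 lower, beside 0.603% of all genes in either direction. Setting protein-coding genes to 0, taking the probe set with the largest difference and leaving out probe sets at 0 could not move the counts, because the median of protein-coding genes was already 0 and each of the 10 had 1 probe set, none at 0. No paired analysis was possible because there was a single array per condition, and neither array could be left out. Signal over background is not known for any gene.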
